A study of Mus musculus with 2 samples.

Results

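The cells described here were selected on 3 genes that were read together at E11.5, En1, Dkk2 and Egfl6, and are called En1/Dkk2/Egfl6 cells below. A cell with at least 200 and fewer than 6500 genes and under 15% mitochondrial unique molecular identifiers (UMIs, which count captured RNA molecules) was taken when the summed UMIs of En1, Dkk2 and Egfl6 were at least 3 and came from at least 2 of these genes. A UMI of Myf5 or Myog (muscle), Sox2 or Elavl3 (neural cells) or Cdh5 (endothelium) excluded the cell. This selection gave 789 of the 9595 kept cells at E11.5, or 8.22% (exact 95% binomial interval 7.68 to 8.79). At E9.5 it gave 0 of the 9851 kept cells, with an exact upper limit of 0.0374%. The 2 libraries held 19446 kept cells in all. Since measured UMIs chose the cells, every level below is a description of that choice, and no value was tested.

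The dorsal dermis of the trunk arises from the dermomyotome, the epithelial sheet on the dorsal side of the somite that also gives rise to skeletal muscle and brown fat, whereas the dermis of the ventral body wall and of the limbs arises from lateral plate mesoderm. En1, a homeobox transcription factor, marks the central dermomyotome and the dermal cells that leave it, but it is also transcribed in ventral spinal cord neurons and in the ventral ectoderm of the limb. Dkk2 is a secreted protein that binds the Wnt co-receptors Lrp5 and Lrp6, Egfl6 is a secreted protein of the extracellular matrix, Prrx1 is a homeobox factor of limb and body wall mesenchyme, and Alcam is a cell adhesion molecule.

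Interlimb somites were dissected from wild type C57BL/6 embryos at embryonic day 9.5 or 11.5, and the tissue of 3 embryos was pooled for each stage, dissociated with trypsin and profiled in a single droplet library. No embryo received a treatment, and the embryos of a pool cannot be told apart. With 1 library per stage, a difference between stages is also a difference between libraries, and the intervals given here are exact 95% intervals that cover counting error only. The E9.5 library held 149368952 UMIs in 10121 barcodes and the E11.5 library 136655763 UMIs in 10167 barcodes, with a median of 12462 and 12479 UMIs per kept cell. The En1/Dkk2/Egfl6 cells held 11971565 UMIs, with a median of 13804 per cell and a range of 2930 to 41675. The libraries shared 25 kept barcodes, among them those of 2 En1/Dkk2/Egfl6 cells. Levels are given as UPM, the UMIs of a gene per 1000000 UMIs summed over a group of cells.

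The genes of the rule were almost unread at E9.5. En1 (GRCm38 chr1:120602418-120607992, plus strand) had 12 UMIs in 12 cells at E9.5 and 3742 UMIs in 1336 cells at E11.5, which is 0.0859 and 28.8 UPM of the whole library, a log2 ratio of 8.39 (7.58 to 9.34). Dkk2 (chr3:132085292-132180304, plus strand) went from 136 UMIs in the earlier library to 4710 in the later one, with a log2 ratio of 5.22 (4.97 to 5.48), and Egfl6 (chrX:166523007-166585720, minus strand) had 33 and 2172 UMIs, with a log2 ratio of 6.15 (5.65 to 6.69). At E9.5 a UMI of any of these genes was found in 169 cells and no cell held UMIs of 2 of them. The few E9.5 reads were spread over different clusters. Of the En1 UMIs, 58.3% (7 of 12) fell in the cluster led by Dmrt2, Pax3 and Tcf15, which are dermomyotome and early somite genes, with the muscle genes Tnnc2 and Acta1, whereas 41.2% of the Dkk2 UMIs fell in a cluster led by Lix1, Hand2 and Osr1, which are genes of lateral mesoderm. The other markers named for these cells were read at both stages. Prrx1 (chr1:163245119-163313710, minus strand) stood at 52.1 UPM at E9.5 and 152 UPM at E11.5, a log2 ratio of 1.55, and Alcam (chr16:52248996-52454074, minus strand) at 4.38 and 55.9 UPM, a log2 ratio of 3.67.

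**Figure D1:**
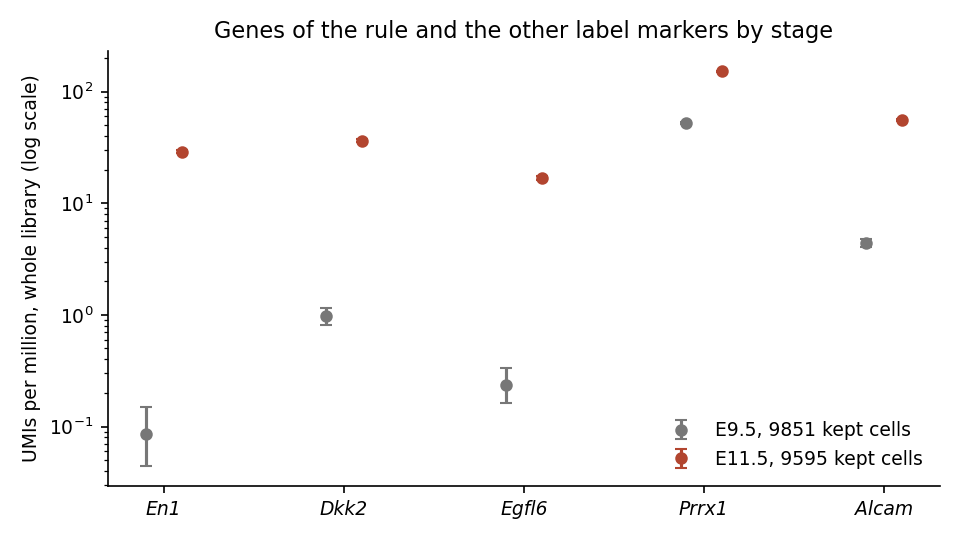
Level of En1, Dkk2, Egfl6, Prrx1 and Alcam in the whole E9.5 library (grey, 9851 cells) and the whole E11.5 library (red, 9595 cells), in UPM on a log axis, with exact 95% Poisson intervals. All 5 genes were higher at E11.5, En1 by the largest factor (12 against 3742 UMIs) and Prrx1 by the smallest (52.1 against 152 UPM).

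At E11.5 the selected cells did not hold all UMIs of the genes that chose them. They held 49.9% of the En1 UMIs, 41.9% of the Dkk2 UMIs and 48.8% of the Egfl6 UMIs of the library. Of the 789 cells, 583 had an En1 UMI (73.9%, at most 16 UMIs), 699 a Dkk2 UMI (88.6%, at most 12) and 505 an Egfl6 UMI (64.0%, at most 9). Their summed UMIs had a median of 5 and a range of 3 to 28. Before the exclusion genes were applied 911 cells met the minimum, and 122 were left out, 67 of them with a Myf5 UMI, 53 with Myog, 17 with Elavl3, 8 with Sox2 and 2 with Cdh5. Of all En1 UMIs of the library, 19.3% lay in the cluster led by Msc, Itm2a and Pax7 (muscle progenitors carry Msc and Pax7), which held 15 of the selected cells, and 4.6% lay in the cluster led by the neuronal genes Ina and Stmn2, where En1 reached 46.1 UPM and no cell was selected.

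The named markers were somewhat higher just inside the minimum of 3 UMIs than just outside it. There were 167 selected cells with exactly 3 UMIs, 138 cells just outside with 2 UMIs from 2 genes, and 410 just outside with at least 3 UMIs of a single gene. Prrx1 stood at 342 UPM in the first of these, 247 in the second and 279 in the third, and Alcam at 106, 77.5 and 92.6 UPM. Dmrt2, a dermomyotome transcription factor, stood at 52.6, 46.6 and 54.6 UPM. Pax3 differed more, at 16.2 UPM in the cells just inside and 4.49 in the cells with 2 UMIs, although the cells with a single gene had 17.5 UPM. The globin Hbb-y was at 37.6 UPM just inside and 4420 UPM in the cells with 2 UMIs.

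The markers named for these cells that the rule did not use were higher than in the other E11.5 cells. Prrx1 stood at 410 UPM (399 to 422) in the En1/Dkk2/Egfl6 cells, and a UMI of it was found in 80.2% of them, or 65.5% after thinning each cell to 5000 UMIs. In the other 8806 cells of the library it stood at 126 UPM, a log2 ratio of 1.70 (1.66 to 1.75). Endothelial cells, which lack Prrx1, gave a UMI in 6.56% of 61 cells at a median of 18787 UMIs per cell (1.69% after thinning), and neural cells in 6.29% of 509 cells at 11651 UMIs per cell (2.23% after thinning), so the share in the selected cells lay above this background. Alcam stood at 109 UPM (102.7 to 115.2) against 50.5 in the other cells, a log2 ratio of 1.11 (1.03 to 1.20), with a UMI in 54.2% of the cells, or 32.3% after thinning. Neural cells carry Alcam too and gave a UMI in 27.1% (14.6% after thinning).

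Further comparisons were made with all other E11.5 cells and with 3 classes of cells of the same library in which En1, Dkk2 and Egfl6 had no UMI and Sox2, Elavl3 and Cdh5 none either. The Pax3/Pax7 class (287 cells, median 17741 UMIs) had at least 3 summed UMIs of Pax3 and Pax7, the paired box factors of muscle progenitors. The sclerotome class (545 cells, median 12414) had at least 3 summed UMIs from at least 2 of Pax1, Pax9 and Nkx3-2, the regulators of the cells that form vertebrae and ribs. The Zic1 class (746 cells, median 12768.5, of which 156 were also in the sclerotome class) had at least 3 UMIs of Zic1, a zinc finger factor of dorsal somite derivatives, and none of Pax3 or Pax7. The gene that chose a class is therefore high in it by construction, and muscle genes are lower in the En1/Dkk2/Egfl6 cells partly because Myf5 and Myog excluded a cell from these alone. The Zic1 class also carried sclerotome genes. The 12 listed summed to 1806 UPM in it and 3087 in the sclerotome class, against 222 in the selected cells. Contrasts with these classes are therefore partly the same contrast. A gene was compared when its level averaged at least 10 UPM over the groups compared, and a gene is counted as higher or lower at a ratio of 2 or more. Both named markers were found in these classes too. A UMI of Prrx1 was found in 46.1% of the Zic1 class (28.4% after thinning), 28.9% of the Pax3/Pax7 class (12.3%) and 26.4% of the sclerotome class (15.5%), and one of Alcam in 30.03% (18.4%), 15.7% (3.86%) and 7.71% (3.78%).

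Against all other E11.5 cells, 43 of 8185 genes compared were at least 2-fold higher (0.525%) and 186 at least 2-fold lower (2.27%), with a median log2 ratio of 0.03. Against the Pax3/Pax7 class, 349 of 7994 genes were higher (4.37%) and 224 lower (2.8%), with a median of 0.10. Against the sclerotome class, 199 of 8074 were higher (2.46%) and 178 lower (2.2%), and against the Zic1 class 131 of 8121 were higher (1.61%) and 169 lower (2.08%), with medians of -0.01 in both. The counts moved with the filter. With genes averaging at least 5 or at least 20 UPM, 62 or 26 were higher and 345 or 90 lower than in the other cells, 524 or 218 higher and 349 or 129 lower than in the Pax3/Pax7 class, 307 or 137 higher and 257 or 112 lower than in the sclerotome class, and 214 or 79 higher and 249 or 101 lower than in the Zic1 class. With cells thinned to 5000 UMIs before the selection 65 were higher than in the other cells.

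Genes of dermal mesenchyme were mostly higher than in the Pax3/Pax7 class, and fewer of them differed by 2-fold from the other groups. Of 20 genes listed, 17 passed the filter against the Pax3/Pax7 class, and 15 of these were at least 2-fold higher and 0 lower, with a median log2 ratio of 2.80. Against all other E11.5 cells 5 of 17 were higher and 1 lower, with a median of 0.80. Against the sclerotome class 8 of 17 were higher and 1 lower (median 0.99), and against the Zic1 class 6 of 17 were higher and 1 lower (median 0.75). The gene on the low side in these last 3 comparisons was Ebf1 each time. Some genes on the high side passed the filter mainly through the selected cells, and their side was largely set by it. Against the Pax3/Pax7 class these included Pdgfra (137 against 6.77 UPM), Lum (137 against 4.63) and Wnt11 (23.1 against 1.43). Against the sclerotome class they included Alx4 (25.7 against 0.688 UPM). The gap was small against the cells nearest to the selection. The list summed to 5234 UPM in the selected cells, to 4658 and 4643 UPM in the cells just outside the rule with a single gene and with 2 UMIs, and to 4598 and 4735 UPM in the unselected cells of clusters 1 and 2 of the clustering given later.

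Twist1, a helix-loop-helix factor of mesenchyme, stood at 554 UPM in the En1/Dkk2/Egfl6 cells, against 294 in the other cells, 169 in the Pax3/Pax7 class, 303 in the sclerotome class and 301 in the Zic1 class. Its relative Twist2, an early dermal marker, stood at 79.3 UPM, 3.31 log2 units above the Pax3/Pax7 class (2.87 to 3.77) but 0.27 above the other cells (0.17 to 0.36) and at -0.29 relative to the sclerotome class (-0.43 to -0.15). Pdgfra, the receptor that marks dermal and other fibroblast precursors, stood at 137 UPM against 6.77 in the Pax3/Pax7 class, a log2 ratio of 4.34 (3.88 to 4.84). It separated the cells from muscle progenitors and much less from the sclerotome class (95 UPM) or the Zic1 class (113 UPM).

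The collagen genes Col3a1, Col1a1 and Col1a2 were higher than in each of the 3 classes. Col3a1, a major collagen of embryonic skin, stood at 1008 UPM and had a UMI in 99.9% of the cells (97.2% after thinning, against 10.2% of endothelial cells), against 473 UPM in the other cells (log2 ratio 1.09, 1.06 to 1.12), 164 in the Pax3/Pax7 class, 285 in the sclerotome class and 449 in the Zic1 class. Col1a2 had a log2 ratio of 1.12 over the other cells (1.08 to 1.16) and Col1a1 of 0.95 (0.89 to 1.00). Other matrix genes of the dermis varied with the comparison. The small proteoglycan gene Dcn stood at 34.3 UPM against 48.7 in the other cells, a log2 ratio of -0.50 (-0.65 to -0.36), but 3.42 log2 units above the Pax3/Pax7 class (2.74 to 4.19), and Dpt, an adult dermal fibroblast gene, had 3 UMIs in all 789 cells. Lum, another small proteoglycan, stood at 137 UPM, 4.88 log2 units above the Pax3/Pax7 class but at -0.31 relative to the Zic1 class (-0.41 to -0.21).

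Several regulators set the cells apart from the Zic1 and sclerotome classes. Alx4, a homeobox factor of body wall and limb mesenchyme, stood at 25.7 UPM against 0.688 in the sclerotome class (log2 ratio 5.22, 3.99 to 6.86) and 0.872 in the Zic1 class (4.88, 3.94 to 6.03). Crabp1, which binds retinoic acid inside the cell, stood at 558 UPM, 2.23 log2 units above the sclerotome class (2.12 to 2.33) and 2.61 above the Zic1 class (2.51 to 2.71). Its contrast with nearer groups was smaller, with 362 UPM in all other E11.5 cells. Crabp1 stood at 552 UPM in the selected cells with exactly 3 UMIs and 442 in those just outside with 2 UMIs. Gas1, a membrane protein that modulates Hedgehog signalling, stood at 794 UPM, 2.28 above the sclerotome class and 1.79 above the Zic1 class. The Ebf factors diverged. Ebf1 stood at 33.1 UPM, against 99.4 in the other cells (log2 ratio -1.59, -1.74 to -1.44) and 232 in the Zic1 class (-2.81, -2.97 to -2.65), whereas Ebf3 stood at 83.2 UPM against 40.8 in the other cells (1.03, 0.93 to 1.13).

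Dermomyotome genes split. Against all other E11.5 cells, 9 of the 16 genes listed passed the filter, 1 was at least 2-fold higher, 1 lower, and the median log2 ratio was 0.10, near the 0.03 of all genes. The gene on the high side was Dmrt2, at 79.4 UPM in 47.5% of the cells (29.1% after thinning, against 0.189% of the sclerotome class and 0.819% of the Zic1 class thinned alike, and 15.4% of the Pax3/Pax7 class). Its log2 ratio was 1.80 over the other cells (1.69 to 1.91), 5.36 over the sclerotome class 5.03 over the Zic1 class and 0.84 over the Pax3/Pax7 class (0.64 to 1.05). The gene on the low side was Pdgfa, a growth factor gene of the myotome, at 8.69 UPM against 73.8 (log2 ratio -3.09, -3.38 to -2.81).

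Against the Pax3/Pax7 class, 8 of 14 dermomyotome genes that passed the filter were at least 2-fold lower and 1 was higher, with a median log2 ratio of -2.61. Pax3 stood at 31.3 UPM, with a UMI in 19.3% of the cells (10.6% after thinning), against 188 UPM in the Pax3/Pax7 class and 2.06 UPM in the sclerotome class. Neural cells, which include dorsal cells that transcribe Pax3, gave a UMI in 31.4% (20.1% after thinning), and endothelial cells in 6.56% (3.39%). Pax7 had 32 UMIs, or 2.67 UPM. Meox2, which was 2.40 log2 units higher than in the Pax3/Pax7 class, was at -1.66 relative to the Zic1 class (-1.81 to -1.50). The cells thus carried Prrx1 and fibrillar collagen UMIs more often than a Pax3 UMI, and origin from the somite was not measured in these data.

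Brown fat precursors, another En1-marked derivative of the dermomyotome, were checked by 10 genes. Only Ebf2 and Zfp423 passed the filter against the other cells, with log2 ratios of 0.77 (0.69 to 0.85) and 0.44 (0.27 to 0.61), neither of them 2-fold. Ebf2, a factor of brown fat commitment, stood at 128 UPM, between the Pax3/Pax7 class (7.66 UPM) and the Zic1 class (217 UPM). Prdm16, which drives the brown fat program, stood at 8.6 UPM, close to the 7.96 UPM of the other cells. Pparg had 1 UMI, and Ucp1, Cidea and Dio2 had 0.

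Markers of other cell types were mostly lower than in the other E11.5 cells, which include those types. Of 15 listed skeletal muscle genes 13 were found under the listed name. Of these, 11 passed the filter against the other cells and all 11 were lower, with a summed level of 87.3 UPM against 2204 UPM. Tnnt1 alone held 53.6 of the 87.3 UPM. The remaining muscle genes thus passed mainly through the other cells, where they are high, and their side was largely set by the filter. Of 12 sclerotome genes 7 passed and all 7 were lower (median log2 ratio -1.75, summed level 222 against 664 UPM), although Sox9, a cartilage regulator, still stood at 74.3 UPM. Of 12 neural genes 5 passed and all 5 were lower (summed level 37.8 against 441 UPM), and the summed endothelial level was 19.6 against 70.6 UPM. The neural genes too passed mainly through the other cells. The neural sum was 70.2 UPM in the Pax3/Pax7 class, 37.2 in the sclerotome class and 30.9 in the Zic1 class, and the endothelial sum 12.1, 19.7 and 25.5 UPM. All 7 red blood cell genes that passed were lower (summed level 299 against 12757 UPM), with Hbb-y, the most abundant, at 182 against 7186 UPM. Against the Pax3/Pax7 class, whose red blood cell sum was 51.9 UPM, all 3 that passed were higher (median log2 ratio 2.59), whereas against the sclerotome and Zic1 classes 6 of 6 and 6 of 7 were lower. A few cells carried most of this sum, since the selected cells of clusters 0, 1, 2, 5, 7 and 8 summed to 56.3 to 84.6 UPM each in the clustering given later. Surface ectoderm genes summed to 44.5 UPM against 79.2 in the other cells and 15.9, 18.3 and 26.9 in the Pax3/Pax7, sclerotome and Zic1 classes, with Epcam at 15.1 against 16.5 UPM (log2 ratio -0.12, -0.35 to 0.10) in 14.7% of the cells (6.11% after thinning, against 5.59% of the Zic1 class, 2.11% of the Pax3/Pax7 class, 1.51% of the sclerotome class and 0.609% of neural cells). Scx, the factor of tendon progenitors, stood at 101 UPM in 41.2% of the cells (24.2% after thinning, against 3.39% of endothelial cells) and at 112 UPM in the other cells. After thinning its share was higher in the Zic1 class (28.5%) and the sclerotome class (28.0%) than in the selected cells, and lower in the Pax3/Pax7 class (13.3%). Scrublet called 40 of the 789 cells as doublets, and the part of doublets and of free RNA in these levels was not tested.

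Genes of the lateral plate and limb were present as well. Over all other E11.5 cells 1 of the 7 that passed the filter was higher and 0 were lower (median log2 ratio -0.05, of 13 listed), but 3 of 4 were higher than in the Pax3/Pax7 class, 3 of 5 higher and 1 lower than in the sclerotome class, and 3 of 4 higher than in the Zic1 class. Osr1, a zinc finger factor of lateral and intermediate mesoderm and of connective tissue, stood at 118 UPM and was found in 46.5% of the cells (31.8% after thinning, against 2.46% of the Pax3/Pax7 class and 1.69% of endothelial cells). Tbx5, the T-box factor of the forelimb field and adjacent body wall, stood at 18.8 UPM in 14.6% of the cells (7.63% after thinning) and had no UMI in the Pax3/Pax7 class or in endothelial cells. Its log2 ratio over the other cells was 1.80 (1.58 to 2.03). Pitx1, a factor of the hindlimb field, stood at 43.8 UPM against 52.1 in the other cells and 6.61 in the sclerotome class, and Hand2, a factor of lateral mesoderm, at 9.94 UPM against 10.3 and 0.275 UPM. Against the Pax3/Pax7 class Osr1 (118 against 4.63 UPM) passed the filter mainly through the selected cells, as did Pitx1 against the sclerotome class. The side of these genes was thus largely set by the filter. Since part of the selected cells carried genes of the lateral body wall, the cells are named here by the genes of the rule and not as derivatives of the somite.

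**Figure D2:**
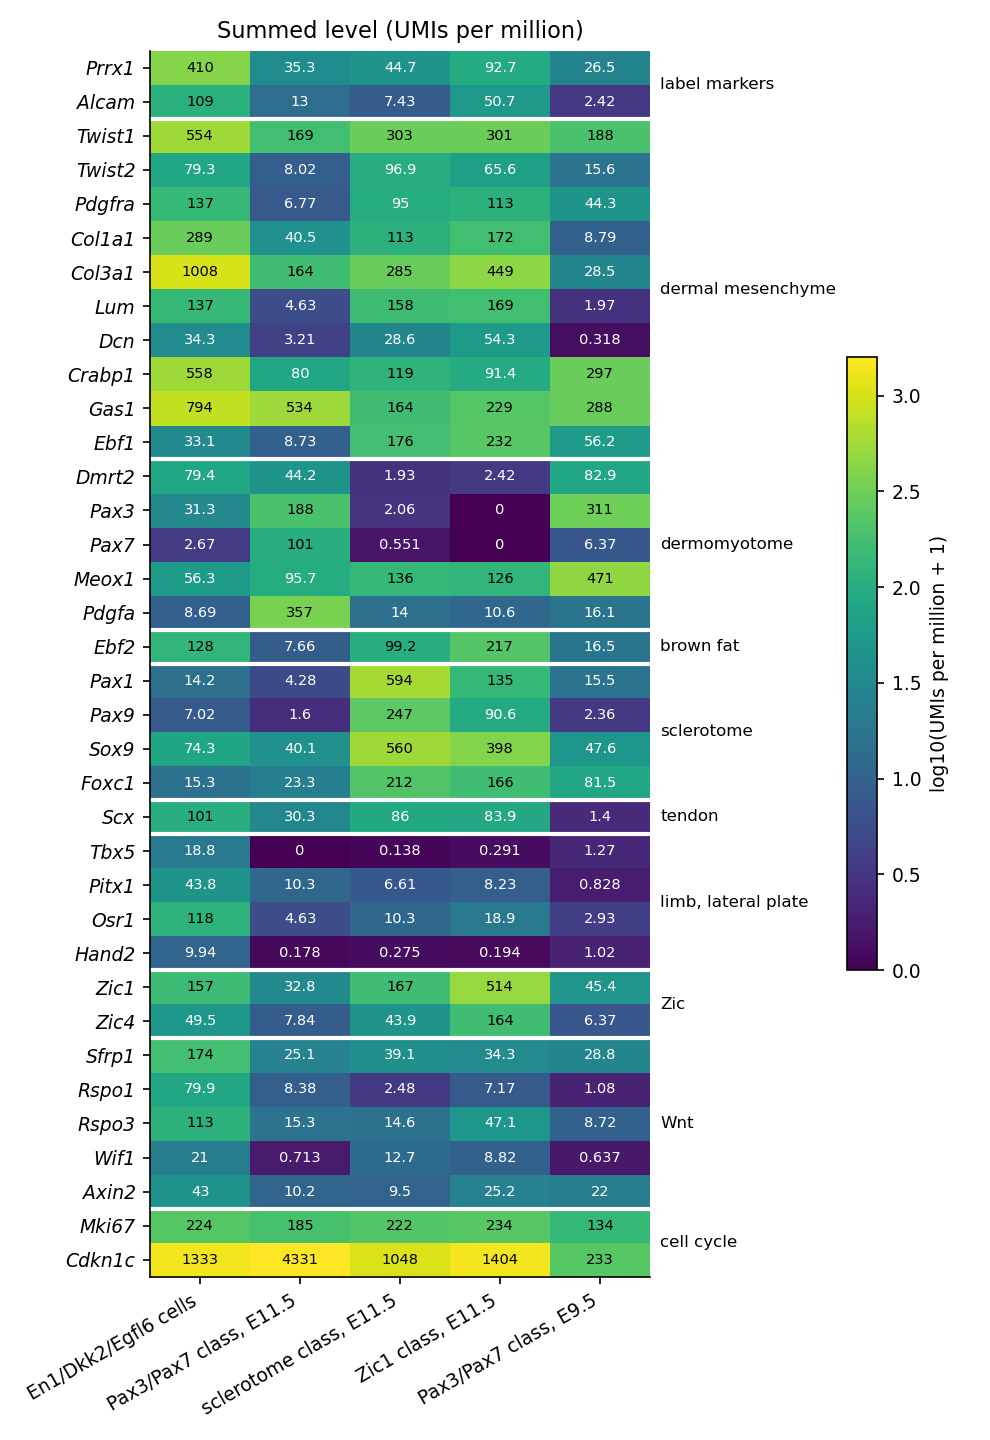
Summed level of 36 genes, grouped by role, in the En1/Dkk2/Egfl6 cells and in 4 comparison classes. The colour gives log10(UPM + 1) and each box prints the UPM. Prrx1 (410), Col3a1 and Crabp1 (558) were highest in the En1/Dkk2/Egfl6 cells, whereas Pax3 was highest in the Pax3/Pax7 classes and Pax1 in the sclerotome class.

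Among genes with at least 100 UMIs in these cells, the 15 with the highest ratio over all other E11.5 cells included secreted, matrix and signalling genes. This minimum was set in the selected cells alone, so it admits genes for being high there, and the ranking is only a description. Veph1, a pleckstrin homology domain gene, stood at 16.7 UPM against 2.27, a log2 ratio of 2.88 (2.61 to 3.15). Pappa2, a protease that cleaves insulin-like growth factor binding proteins, stood at 15.7 UPM against 2.68, a log2 ratio of 2.55 (2.28 to 2.81). The others had log2 ratios of 1.69 to 1.89. They included Adcyap1, a neuropeptide gene, the protocadherin gene Pcdh19 (56.0 against 15.5 UPM), Tbx5, Dmrt2, Apela, which encodes a ligand of the apelin receptor, Lor, a cornified envelope gene, Corin, a membrane protease of the dermal papilla, Ch25h, which makes an oxysterol, Limch1, Prrx1 and the transcripts 2610016A17Rik and 2700069I18Rik. Limch1, which activates non-muscle myosin, stood at 355 UPM against 105 (log2 ratio 1.76, 1.71 to 1.81), and was also higher than in the sclerotome class (157 UPM) and the Zic1 class (159 UPM).

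At the other end, the 15 lowest genes were mainly those of contractile muscle. All 15 passed the filter mainly through the other cells, and their side was largely set by it. Muscle genes were also lowered in part by the exclusion of cells with Myf5 or Myog. The lowest ratio was that of Gm7325, at 0.0835 against 37.3 UPM (log2 ratio -8.80, -14.11 to -6.32). Myh3, the embryonic myosin heavy chain, had 3 UMIs in the En1/Dkk2/Egfl6 cells and stood at 82.0 UPM in the other cells (log2 ratio -8.35, -10.63 to -6.81). The macrophage genes C1qb and Pf4 had 1 and 2 UMIs, with log2 ratios of -7.91 (-13.21 to -5.43) and -7.85 (-10.90 to -6.00). Isl1, a homeobox factor of motor neurons and hindlimb mesenchyme, had 0 UMIs in the En1/Dkk2/Egfl6 cells against 23.4 UPM in the others, at least 6.55 log2 units lower when 3 UMIs are taken as the floor over the group.

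Wnt pathway genes were read by role. Wnt ligands stood near the level of the other cells, with 5 of 19 passing the filter, 0 at least 2-fold higher and 1 lower. The lower gene was Wnt4 (4.93 against 22.1 UPM, log2 ratio -2.16, -2.56 to -1.79). Wnt5a, a ligand of non-canonical signalling, stood at 57.3 UPM against 71.9, and Wnt11 at 23.1 against 19.9 UPM. Of 18 receptor genes 11 passed, 1 was higher and 1 lower. The higher gene was Ror1, a co-receptor for Wnt5a, at 27.9 UPM against 13.4 (1.05, 0.88 to 1.23), and the lower was Fzd8 (8.27 against 17.9 UPM). The abundant receptor Fzd2 stood at 231 UPM against 177 and did not reach 2-fold.

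Secreted Wnt antagonists and modulators were the group with the largest share of higher genes among the Wnt lists. Of 19 listed, including Dkk2, which the rule used and which was not counted, 6 passed the filter against the other cells, and 4 were at least 2-fold higher and 0 lower, with a median log2 ratio of 1.03. All 5 that passed were higher than in the Pax3/Pax7 class (median 2.89), 3 of 5 were higher than in the sclerotome class and 4 of 5 higher than in the Zic1 class. Between the selected cells with exactly 3 UMIs and the cells just outside with 2 UMIs, 0 of 5 were past 2-fold (median 0.17). Sfrp1 stood at 177 UPM in the former and 175 UPM in the latter. The 4 genes higher than in the other E11.5 cells were of opposite kinds. Sfrp1, which binds and sequesters Wnts, stood at 174 UPM against 84.7 in the other cells (1.04, 0.97 to 1.11) and 34.3 in the Zic1 class. Wif1, another Wnt binding inhibitor, stood at 21 UPM against 7.53 (1.48, 1.27 to 1.68). The R-spondins, which potentiate Wnt signalling by sparing Frizzled receptors from turnover, were Rspo1 at 79.9 UPM against 39.7 (1.01, 0.91 to 1.11) and Rspo3 at 113 UPM against 38.3 (1.57, 1.48 to 1.66).

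Rspo1 gave the larger contrast with the sclerotome class, at 2.48 UPM there (log2 ratio 5.01, 4.34 to 5.77), and Rspo3 the smaller one with the Zic1 class, at 47.1 UPM (1.27, 1.12 to 1.42). Among Wnt targets and effectors 7 of 12 passed the filter against the other cells, and 0 were 2-fold higher or lower, with a median of 0.22. Axin2, a feedback target of canonical Wnt signalling, stood at 43.0 UPM against 23.3 (0.88, 0.74 to 1.02), and at 2.18 log2 units above the sclerotome class (1.81 to 2.56). Lef1, a transcription factor of dermal Wnt response, stood at 24.8 UPM against 22.2 (0.16, -0.02 to 0.33), which counting error alone does not separate.

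Bmp and Tgf-beta genes were mostly at the level of the other cells, with 2 of 17 at least 2-fold higher and 0 lower (median 0.21). The 2 were the ligand genes Bmp4, at 31.0 UPM against 11.3 (1.45, 1.28 to 1.62), and Gdf10, at 44.6 against 22.2 (1.00, 0.87 to 1.14). The Bmp antagonist Nog stood at 1.42 UPM against 5.44. Id3, a transcriptional target of Bmp signalling, stood at 361 UPM against 520 in the other cells and 937 in the Zic1 class (-1.38, -1.43 to -1.32). Of Hedgehog genes 6 of 10 passed, and 1 was lower. It was Ptch1, the receptor and target gene, at 10.8 UPM against 26.6 (-1.31, -1.57 to -1.05) and 86.4 in the sclerotome class (-3.00, -3.29 to -2.73). Fgf genes had 0 of 8 past 2-fold in either direction, Notch genes 1 of 7 lower, and retinoic acid genes 1 of 10 lower. The lower retinoic acid gene was Aldh1a2, which makes the ligand, at 16.4 UPM against 39.5.

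Genes of the extracellular matrix and of adhesion followed the comparison class. Of 22 fibrillar matrix genes 20 passed against the other cells, with 2 higher, 1 lower and a median of 0.38, and 19 passed against the Pax3/Pax7 class, with 10 higher, 1 lower and a median of 2.18. Of the 20 that passed against the sclerotome class 8 were higher and 3 lower (median 0.23), and of the 20 against the Zic1 class 4 were higher and 2 lower (median -0.09), so the list as a whole did not stand above the Zic1 class. Postn, a matricellular gene of collagen-rich tissue, stood at 92.2 UPM against 3.30 in the sclerotome class (4.80, 4.22 to 5.45) and 9.78 in the Zic1 class (3.24, 2.94 to 3.55), but at 70.7 in the Pax3/Pax7 class. Vcan, a hyaluronan binding proteoglycan, ran the other way, at 107 UPM against 440 in the sclerotome class (-2.04, -2.14 to -1.95) and 390 in the Zic1 class. The partners of Egfl6 and the basement membrane genes showed 0 of 11 past 2-fold against the other cells (median -0.10). Among them Itga8, which encodes the integrin chain that binds Egfl6, stood at 13.1 UPM against 12.1 (0.11, -0.13 to 0.35). Of 15 adhesion genes 11 passed, and 2 were higher, Alcam and Pcdh19, and 2 lower. The fibrillar matrix list summed to 3425 UPM in the selected cells and to 3463 UPM in the unselected cells of cluster 1 in the clustering given later.

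Cell cycle genes stood near the level of the other E11.5 cells. Of 16 S phase genes and 16 G2 and M phase genes all passed the filter in the comparison with the other E11.5 cells and 0 were past 2-fold, with median log2 ratios of 0.12 and 0.28. Mki67 stood at 224 UPM against 184 in the other cells, 222 in the sclerotome class and 234 in the Zic1 class. Cdkn1a, an inhibitor of the cell cycle that is induced in muscle cells, had 14 UMIs, at 1.17 UPM against 75.5 (-6.01, -6.88 to -5.27). Cdkn1c, an imprinted inhibitor, stood at 1333 UPM against 2418 in the other cells and 4331 in the Pax3/Pax7 class. It stood at 1048 UPM in the sclerotome class and 1404 in the Zic1 class.

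Hox genes, which mark position along the body axis, were read cluster by cluster. The Hoxa genes summed to 474 UPM, the Hoxb genes to 131, the Hoxc genes to 788 and the Hoxd genes to 42.2. Against the Pax3/Pax7 class 10 of 17 Hox genes that passed the filter were higher and 0 lower, whereas against the Zic1 class 0 of 23 were higher and 9 lower, and against the sclerotome class 0 of 23 were higher and 8 lower. The lower genes were largely those of the Hoxb cluster, whose sum was at -1.56 log2 units relative to the Zic1 class and -1.36 relative to the sclerotome class, but at 1.30 relative to the Pax3/Pax7 class. The Hoxa sum was at 0.01 relative to both the Zic1 and the sclerotome class and the Hoxc sum at -0.14 and 0.26. The Hoxd sum was lower relative to the Zic1 class as well, at -1.12 (-1.28 to -0.96), and at -0.14 relative to the sclerotome class. Hoxb8 stood at 11.9 UPM against 51.7 in the sclerotome class and 63.3 in the Zic1 class, and Hoxa9 at 91.7 UPM against 52.0 and 60.6.

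**Figure D3:**
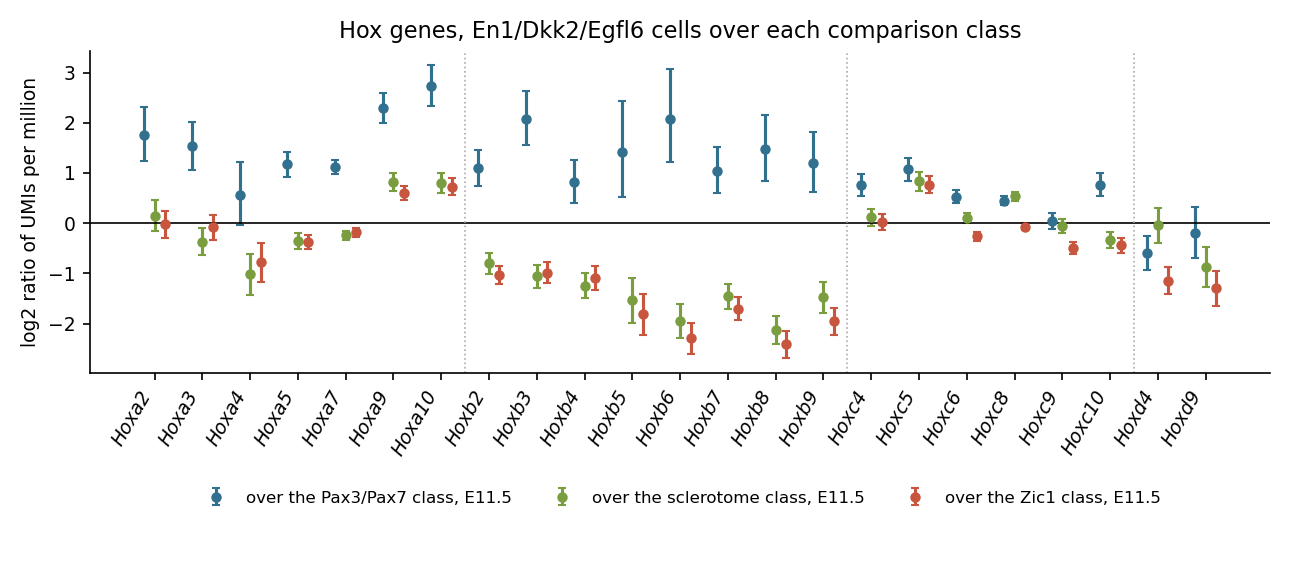
Log2 ratio of the level of single Hox genes in the En1/Dkk2/Egfl6 cells over the Pax3/Pax7 class (blue), the sclerotome class (green) and the Zic1 class (red) of the E11.5 library, with exact 95% intervals, in gene order within the Hoxa, Hoxb, Hoxc and Hoxd clusters. The Hoxb genes were lower than in the sclerotome and Zic1 classes and higher than in the Pax3/Pax7 class, and Hoxa9 and Hoxa10 were higher than in all 3.

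The cells were then placed in a clustering of the E11.5 library that left out the 8 genes of the rule. They did not form a cluster of their own. Of the 16 clusters, cluster 2 held 385 of the 789 (48.8%), which made up 20.8% of its 1852 cells (18.96 to 22.7), and cluster 1 held 234 (29.7%), or 20.5% of 1143 cells (18.2 to 22.9). Both are led by mesenchymal regulators, cluster 2 by Pitx1, Osr1, Rspo1, Emx2 and Prrx1 and cluster 1 by Gsc, Dmrt2 and Tbx3os1. Cluster 7, led by Tbx15, Osr1 and Sostdc1, held 38, cluster 0, led by Aldh1a2, Wt1 and Kctd14, held 42, and the cartilage-matrix clusters 5 and 8 held 39 and 32. The cluster led by Msc, Itm2a and Pax7 held 15, the one led by Cxcl14 and Krt5 held 3, and the one led by globins held 1. None was found in the other 7 clusters, which were led by Hes5, by Ina, by Mylpf and Acta1, by Pf4 and C1qb, by Ednrb and Sox10, by Pmel and Dct, and by Dbh.

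**Figure D4:**
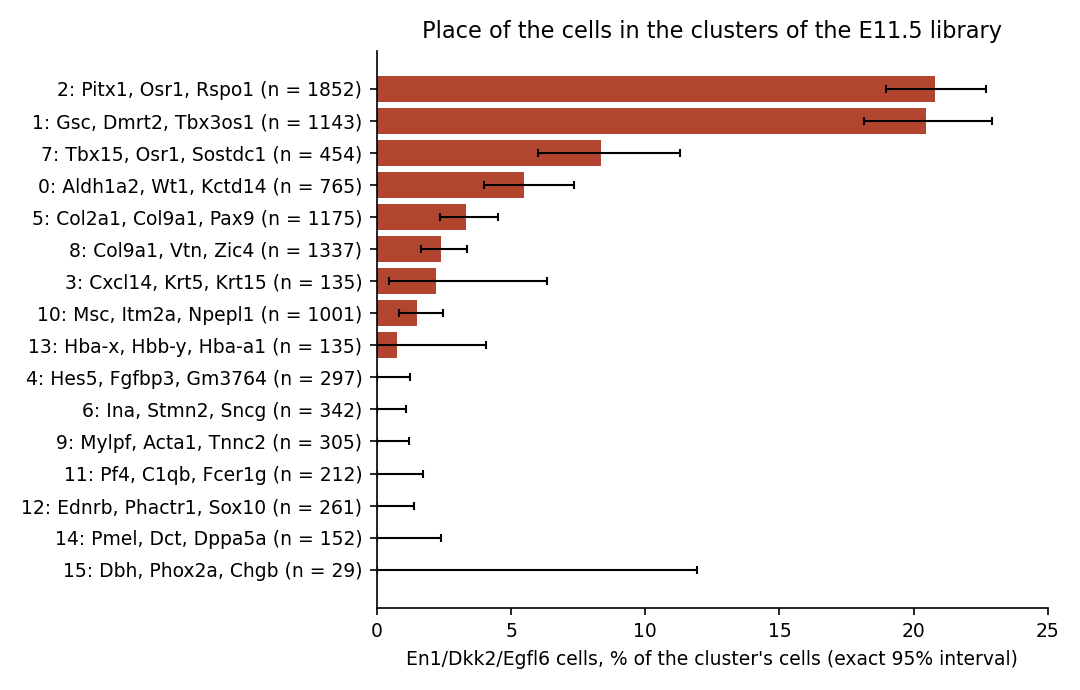
Share of each of the 16 clusters of the E11.5 library taken by the En1/Dkk2/Egfl6 cells, in % with exact 95% binomial intervals, for clusters named by number and leading genes, with their cell number. Clusters 2 (20.8%) and 1 (20.5%) held the highest shares and 7 clusters held none.

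The selected cells of clusters 1 and 2 were close in the marker genes and far apart in cell cycle genes. In those of cluster 2 and of cluster 1, Prrx1 stood at 451 and 390 UPM, Dmrt2 at 88.2 and 100 UPM, Pax3 at 33.2 and 29.6 UPM and Tbx5 at 21.1 and 14.6 UPM. Mki67 stood at 311 and 41.5 UPM, and the mitotic genes Ube2c and Ccnb1 at 1010 against 42.2 and 282 against 15.0 UPM. The replication genes Ung and Cdc6 ran the other way, at 14.6 against 67.7 and 13.0 against 48.5 UPM. The selected cells of a cluster also differed from the remaining cells of the same cluster. In cluster 2, Prrx1 stood at 451 UPM in the selected cells and 301 in the others, Alcam at 107 and 71.3, Pax3 at 33.2 and 5.43, Zic1 at 143 and 44.7, Emx2 at 60.8 and 138, and Osr1 at 127 and 225 UPM. In cluster 1, Pax3 stood at 29.6 and 6.05 UPM, Alcam at 76.0 and 37.9, Emx2 at 34.2 and 100, and Osr1 at 96.6 and 142 UPM. In both clusters the selected cells were thus higher in Pax3 and Alcam and lower in Emx2 and Osr1 than their cluster mates, while Gsc stood at 51.6 UPM in both groups of cluster 1.

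The smaller groups departed from this pattern. The 42 cells in cluster 0 had Prrx1 at 92.4 UPM, Dmrt2 at 7.11 UPM and no Pax3 UMI, with Foxd1 at 402 UPM and Aldh1a2 at 179 UPM. The 38 cells in cluster 7 had Prrx1 at 662 UPM, Osr1 at 446 UPM and Emx2 at 225 UPM, again with no Pax3 UMI. The 39 and 32 cells in clusters 5 and 8 had Zic1 at 390 and 564 UPM and Sox9 at 273 and 306 UPM. Low Prrx1 was thus seen in the cells of cluster 0 and sclerotome genes in those of clusters 5 and 8. The lateral plate and limb list was highest in the selected cells of clusters 0 and 7, at 482 and 685 UPM. It was not confined to them, since it summed to 274 and 309 UPM in those of clusters 1 and 2.

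Cells that met the rule through different genes were not alike. All 3 genes were found in 209 cells, En1 with Dkk2 in 284, En1 with Egfl6 in 90, and Dkk2 with Egfl6, but no En1 UMI, in 206. The median depths were close, from 12839.5 to 14076 UMIs per cell. Between the 583 cells with En1 and the 206 without, 17 of 8065 genes compared were at least 2-fold higher in the cells with En1 (0.211%) and 52 were lower (0.645%), with a median log2 ratio of -0.02. These counts rest on the filter, since they were 34 and 104 with genes of at least 5 UPM and 5 and 24 with at least 20 UPM. They were 381 and 443 when cells were thinned to 5000 UMIs before the selection. That change alters both the depth and the cells selected, and the part of each was not tested.

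The label markers were read in all 4 groups. In the order all 3 genes, En1 with Dkk2, En1 with Egfl6, and Dkk2 with Egfl6, Prrx1 stood at 438, 416, 486 and 341 UPM. Alcam stood at 103, 93.5, 120 and 133 UPM. Dmrt2 stood at 91.5, 90.0, 70.3 and 55.2 UPM and Pax3 at 46.7, 28.2, 31.7 and 19.2 UPM, and both were lowest in the cells without En1. The dermomyotome list as a whole did not follow them, with 0 of 9 genes at least 2-fold higher in the cells with En1, 2 lower, a median log2 ratio of -0.18 and a summed level of 395 UPM with En1 and 443 UPM without. The log2 ratio of the cells with En1 over those without was 0.67 for Dmrt2 (0.43 to 0.92) and 0.89 for Pax3 (0.49 to 1.32). Rspo1 stood at 66.2, 118, 89.7 and 37.7 UPM.

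The cells without an En1 UMI were higher in another set of regulators. Foxd1, a forkhead factor of mesenchyme, stood at 135 UPM in them against 27.1 in the cells with En1, a log2 ratio of En1 cells over these of -2.31 (-2.55 to -2.08). Pitx1 stood at 106 against 22.3 UPM (-2.25, -2.51 to -1.99), Gsc at 72.4 against 13.3 UPM (-2.45, -2.78 to -2.12) and Dcn at 75.0 against 20.2 UPM (-1.89, -2.18 to -1.60). Eya1, Ebf1 and Aldh1a2 had log2 ratios of -2.84, -1.66 and -2.10. Scx stood at 174 UPM in the cells without En1 and at 59.5 to 87 UPM in the 3 groups with it. Among the genes higher in the cells with En1 were Grem1, a Bmp antagonist (21 against 5.19 UPM, log2 ratio 2.02, 1.28 to 2.85), Apela (1.65), Tbx5 (1.35) and Rspo1 (1.33), but also the globins Hba-x and Hbb-y. The globins were concentrated in the cells with En1 and Dkk2, where Hbb-y stood at 435 UPM against 31.7 to 40.9 UPM in the other 3 groups. The part of the single selected cell in the globin-led cluster in these values was not tested.

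**Figure D5:**
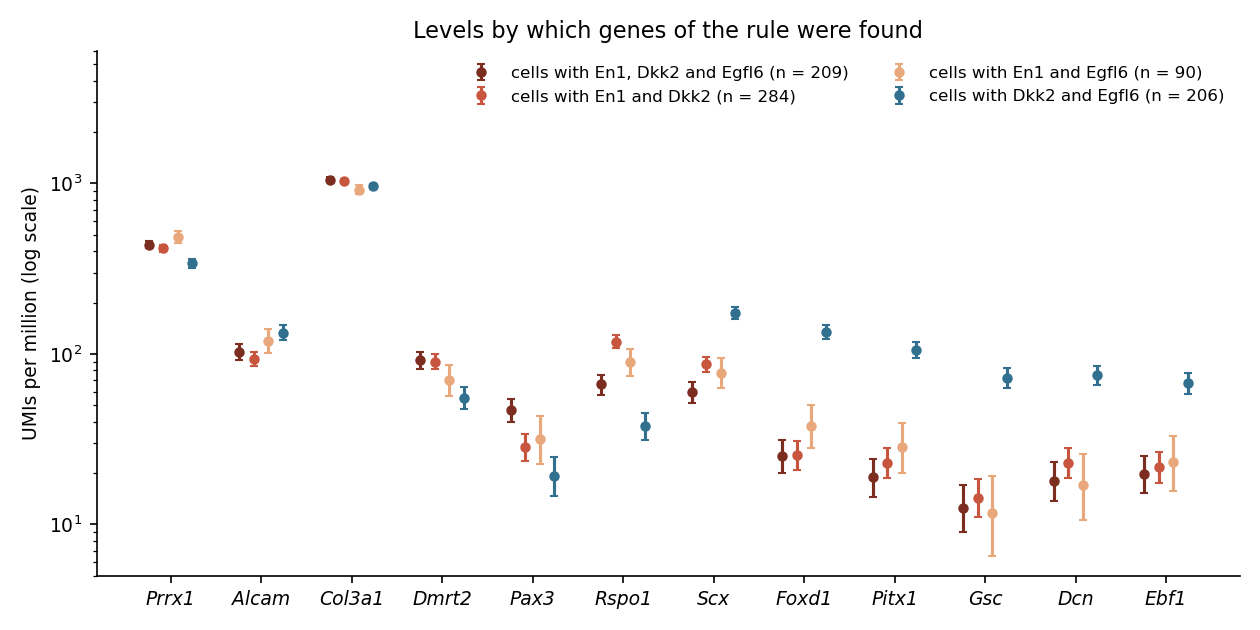
Level of 12 genes in the En1/Dkk2/Egfl6 cells split by which genes of the rule were found, in UPM on a log axis with exact 95% Poisson intervals. Foxd1, Pitx1, Gsc, Dcn and Ebf1 were highest in the 206 cells with Dkk2 and Egfl6 and no En1 UMI, and Dmrt2 and Pax3 were lowest there.

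A Pax3 or Pax7 UMI was found in 164 of the 789 cells and in none of the other 625. Depth was close, with medians of 14541.5 and 13468 UMIs per cell. Between these groups 40 of 8000 genes compared were at least 2-fold higher in the cells with Pax3 or Pax7 (0.5%) and 83 were lower (1.04%), with Pax3 itself among the former by construction. With genes of at least 5 UPM the counts were 78 and 149, with at least 20 UPM 25 and 43, and with thinning to 5000 UMIs 627 and 626 before the selection and 190 and 308 after it. The higher genes included Itm2a, a membrane protein gene of muscle progenitors (840 against 171 UPM, log2 ratio 2.29, 2.20 to 2.39), Pdgfa (25.4 against 3.96 UPM, 2.68, 2.08 to 3.30), Shisa2 (128 against 30.3 UPM) and Meox2 (84.5 against 27.9 UPM, 1.60, 1.34 to 1.86). Of the dermomyotome genes, a list that holds Pax3 and Pax7 themselves, 5 of the 9 that passed the filter were higher and 0 lower (summed level 719 against 319 UPM). The skeletal muscle genes summed to 147 against 70.4 UPM, with 1 of the 2 that passed higher. Of the 17 dermal mesenchyme genes that passed 4 were lower and 0 higher (summed level 4586 against 5417 UPM). Of the lateral plate and limb genes 4 of the 5 that passed the filter were lower and 0 higher. The 3 red blood cell genes that passed were lower too (summed level 75.0 against 362 UPM), although few cells carried most of the globin UMIs. Tbx5 had 1 UMI, or 0.379 UPM, in the cells with Pax3 or Pax7 and 24.0 UPM in those without (log2 ratio -5.98, -11.29 to -3.49). Mab21l2 stood at 1.89 against 59.0 UPM (-4.96, -6.59 to -3.73), Pitx1 at 8.34 against 53.8 UPM, Lix1 at 9.10 against 59.4 UPM and Rspo1 at 17.4 against 97.6 UPM. The named marker Alcam was lower too, at 44.3 against 128 UPM, whereas Prrx1 stood at 348 and 428 UPM and Dmrt2 at 111 and 70.5 UPM.

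No E9.5 cell met the rule, so the change of the cells between stages could not be measured. In its place the E11.5 cells were set beside the 826 Pax3/Pax7 class cells at E9.5 (median 16438.5 UMIs), which carried the dermomyotome regulators Pax3, Meox1 and Tcf15. This comparison holds stage, library and cell class together, and they cannot be told apart. Of 7854 genes compared 830 were at least 2-fold higher in the E11.5 En1/Dkk2/Egfl6 cells (10.6%) and 359 were lower (4.57%), with a median log2 ratio of 0.09.

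On the high side were 12 of 16 fibrillar matrix genes with 0 lower (median 3.91), 13 of 18 dermal mesenchyme genes with 0 lower (median 2.26), 5 of 5 lateral plate and limb genes (median 3.88) and 4 of 5 Wnt antagonists and modulators (median 3.70). The lateral plate and limb list summed to 303 UPM in the selected cells and 18.2 UPM in the E9.5 class. Its 5 genes thus passed the filter mainly through the selected cells, and their side was largely set by it. Genes of other lists did so too, among them Postn (92.2 against 0.637 UPM) and Dcn (34.3 against 0.318 UPM). The fibrillar matrix list summed to 3425 against 587 UPM and the dermal mesenchyme list to 5234 against 1659 UPM. The Wnt antagonists and modulators, with the rule gene Dkk2, summed to 689 against 118 UPM. Col3a1 stood at 1008 UPM against 28.5 (log2 ratio 5.15, 5.01 to 5.29) and Prrx1 at 410 against 26.5 UPM (3.95, 3.81 to 4.10). Among the 15 genes with the highest ratios were Bcl11a, a zinc finger factor that ranked first (109 against 0.0637 UPM, which is 1 UMI, log2 ratio 10.74, 8.26 to 16.05), Hoxa10 (67.3 against 0.191 UPM, 8.46, 6.91 to 10.74) and Nfib, a nuclear factor I gene of later development (265 against 1.15 UPM, 7.85, 7.19 to 8.61). Dermomyotome genes were lower in 8 of 11 cases and higher in 0 (median -1.52), with Meox1 at 56.3 against 471 UPM and Tcf15 at 117 against 373 UPM. Dmrt2 was an exception, at 79.4 against 82.9 UPM (-0.06, -0.19 to 0.06). The lowest ratios included Lbx1, a factor of migrating muscle precursors (0.167 against 22.2 UPM, log2 ratio -7.06, -10.11 to -5.19), the pluripotency and timing genes Lin28a (0.418 against 45.8 UPM), Sall4 and Trim71 (2.34 against 104 UPM), and Fst, an activin antagonist (3.93 against 225 UPM). Nfib stood at 149 to 254 UPM in the E11.5 classes and Trim71 at 2.34 to 9.09 UPM, and the corresponding E9.5 levels were 1.15 and 104 UPM.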

How the data were processed

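The authors sequenced 1 droplet library (10x Genomics) per stage and, per the labels, processed it with Cell Ranger 3.0.1 on mm10. The deposited files hold raw UMI counts for 27998 genes and 10121 or 10167 barcodes, where the labels state 10000 cells per sample. Kept cells were grouped by the rule given above. The cells, gene lists, classes and alternatives were chosen with earlier results of these data known. UMI counts were summed per group and divided by the group's total. A ratio has an exact 95% interval for 2 Poisson counts, a share an exact Clopper-Pearson interval, and a level of 0 is bounded by 3 UMIs over the group. No test was run. Named genes were the label markers, the members of 36 lists, and the 15 genes (of those with 100 UMIs or more) with the highest ratio of the selected cells over the other E11.5 cells; the stage-ratio part of this rule could not be applied, and the 15 highest and lowest genes of each comparison replaced it. The 15 lowest over other cells, and genes that lead a split or a cluster, were named after their values were seen. Clusters came from scanpy 1.11.5 (2000 variable genes, 18 components, resolution 0.4). Scrublet (expected rate 0.08) called 6.75% (E9.5) and 4.00% (E11.5) of the barcodes as doublets, which stayed in. Shares after thinning left out cells under 5000 UMIs, 3 of the 789 among them. Gene positions came from GENCODE M21, which held 27722 of the IDs. The scripts ran under Python 3.11.15 with SciPy 1.17.1 and were tested on simulated data. Some items are not reported here.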

Additional observations from a re-analysis of the deposited data

Results flagged for a closer look

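The selection was also applied to the barcodes that the limits on genes and mitochondrial UMIs had removed, which enter no comparison above. Of 572 removed E11.5 barcodes, 14 met it, or 2.45% (exact 95% interval 1.34 to 4.07), 11 of them with 6500 or more genes. At E9.5 it was 0 of 270 removed barcodes, which allows a share of up to 1.11% when 3 barcodes are taken as the floor. This bound is not an exact interval.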

How the results depend on the processing

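No E9.5 cell held 2 of the genes, so the E9.5 share could only be 0 under the 8 changes of the selection, which all keep that condition. The E11.5 share of 8.22% became 9.66% with a summed minimum of 2 UMIs, 6.48% with a minimum of 4, 6.08% with an En1 UMI required, 9.49% without the exclusion genes, 3.02% when cells were thinned to 5000 UMIs first, and 7.64% without cells with 2 or more UMIs of Epcam, Krt8 and Krt18. The planned ratios between stages could not be computed, since no E9.5 cell met the rule. The alternatives for the ratios below were chosen after seeing the data. Of 1927 log2 ratios of 35 genes, 1903 kept their sign and 1604 stayed within the interval as reported. Without the exclusion genes Myod1 turned to 0.91 over the sclerotome class and 0.68 over the Zic1 class, since the cells with Myf5 or Myog then entered, and with thinning first Pax1 turned to -0.23 over the Pax3/Pax7 class (the cause was not tested). Of 166 counts of genes past 2-fold 137 stayed within 1.5 times. With a mean of 5 UPM, which tests more genes, 345 were lower than in the other E11.5 cells, 524 higher and 349 lower than in the Pax3/Pax7 class, 307 higher than in the sclerotome class and 214 higher than in the Zic1 class. With a mean of 20 UPM, which tests fewer, 26 were higher and 90 lower than in the other E11.5 cells, 218 higher and 129 lower than in the Pax3/Pax7 class, 112 lower than in the sclerotome class, and 79 higher and 101 lower than in the Zic1 class. The splits within the cells, which rest on fewer UMIs, moved most. Between cells with and without En1, 34 were higher and 104 lower at 5 UPM, 5 and 24 at 20 UPM, 381 and 443 with thinning first, 26 higher with thinning after the selection and 33 higher without the exclusion genes. Between cells with and without Pax3 or Pax7 the counts were 78 and 149 at 5 UPM, 25 and 43 at 20 UPM, 627 and 626 with thinning first, and 190 and 308 with thinning after. With thinning first 65 genes were higher than in the other E11.5 cells. With a single library per stage, no spread between embryos or libraries could be measured.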

Other observations

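Tbx5 had no UMI in 674 of the En1/Dkk2/Egfl6 cells, and a split by this gene, chosen after its values were seen, gave 59 of 8044 genes at least 2-fold higher and 59 at least 2-fold lower in the cells with Tbx5 (0.733% each). Median depth was 13807 UMIs per cell with Tbx5 and 13795 without. Of the lateral plate and limb genes 5 of the 7 that passed the filter were higher and 1 lower, with Tbx5 itself among the higher ones by construction. The higher genes included Hand2 (35.6 against 5.49 UPM), Shox2 (32.2 against 5.49 UPM), Gata6 (41.8 against 9.51 UPM) and Tbx18 (22.6 against 3.43 UPM). The lower genes included Pax3 (1 UMI, 0.565 against 36.7 UPM, log2 ratio -6.02, -11.33 to -3.53), Zic1 (39.0 against 177 UPM) and the posterior gene Hoxc10 (13.6 against 68.0 UPM). Prrx1 stood at 338 and 423 UPM and Alcam at 127 and 106 UPM, so both groups carried the markers named for these cells.

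Genes with expression from 1 parental allele were also read. Of 15 imprinted genes 14 passed the filter against the other E11.5 cells, and 0 were at least 2-fold higher and 1 lower. Dlk1, a membrane regulator of mesenchymal and fat precursors, stood at 492 UPM against 338 in the other cells (log2 ratio 0.54, 0.50 to 0.58), 103 in the Pax3/Pax7 class, 201 in the sclerotome class and 147 in the Zic1 class. At the edge of the rule Dlk1 stood at 483 UPM in the selected cells with exactly 3 UMIs. It was higher, at 569 UPM, in the cells just outside with 2 UMIs. Plagl1 stood at 64.2 UPM against 425 in the Pax3/Pax7 class (-2.73, -2.85 to -2.61). Hmga2, a chromatin factor of growing embryonic tissue, stood at 891 UPM against 281 in the Pax3/Pax7 class (1.66, 1.59 to 1.74) and 444 in the sclerotome class. In the other E11.5 cells Hmga2 stood at 609 UPM. It stood at 869 UPM in the selected cells with exactly 3 UMIs and 812 in those just outside with 2 UMIs. The female gene Xist stood at 358 UPM against 404 in the other E11.5 cells and the male gene Ddx3y at 43.9 against 36.8, so both sexes were read in the cells, as in the rest of the library.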
